A study of Mus musculus with 48 samples.

Results

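The 6 genes described here are Dusp1, Dusp3, Dusp6, Dusp7, Dusp10 and Dusp16, 6 of the 22354 genes in a table of liver read counts from 48 mice. They were found by gene symbol, and all 6 passed the filter on low counts that left 13646 genes to test. The 6 were chosen by name with the difference between KO and WT CPM of these same libraries in view, so genotype differences of the 6 are given below as a description, with their standard errors and no test.

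Every mouse was a female C57BL/6J housed at 12 h light and 12 h dark, then kept for 1 day in constant darkness and fasted for 24 h before the liver was taken. The 23 mice labelled KO lacked the clock gene Bmal1 (symbol Arntl) in adipocytes, and the 25 labelled WT were their controls. The deletion was made in fat cells and not in the liver that was sequenced. The promoter that drove the deletion is not given in the sources used here, and neither is the control genotype beyond WT. Collection was at 6 times of day 4 h apart, ZT0, ZT4, ZT8, ZT12, ZT16 and ZT20, where ZT0 is lights on in the housing schedule. Each of the 12 genotype and time groups held 4 mice, except WT at ZT16 with 5 and KO at ZT16 with 3. Mice were 28.75 to 105 weeks old, and mean body weight was 21.8 ± 1.997 g in WT (SD, n = 25) and 24.2 ± 3.57 g in KO (SD, n = 23).

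The libraries were even in depth, at 12840000 to 13010000 reads on genes once albumin (Alb) was set aside. The share of reads in Alb ranged from 5.66% to 14.6%. Liver Arntl does not check the labels, because the deletion was made in adipocytes. Its level was 0.30 higher in KO on the log2 scale (SE 0.16, adjusted p = 0.347). Of 13646 genes tested, edgeR's quasi-likelihood test with Benjamini-Hochberg adjustment called 191 between KO and WT over all times (1.4%), 85 higher and 106 lower. The 8 hepatocyte markers tested were abundant in every library, with a summed level of 21120 to 53540 CPM in WT (read counts scaled to a common library size, the unit of every level below) and 24960 to 57030 in KO. Of 6 adipocyte markers, 1 passed the filter on low counts.

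Mitogen-activated protein (MAP) kinases carry signals from growth factors, hormones and stress by being phosphorylated on a threonine and a tyrosine in their activation loop. The dual-specificity phosphatases described here remove those phosphates and so switch the kinases off. Dusp1 is a nuclear enzyme and an immediate early gene that acts mainly on p38 and JNK and is induced by stress, growth factors and glucocorticoids. Dusp6 and Dusp7 are cytoplasmic and prefer ERK. Dusp10 and Dusp16 prefer JNK and p38. Dusp3 is a small enzyme without the kinase-binding domain of the others and acts on ERK and JNK.

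The counts were made on the mm9 build, on which Dusp1 (ENSMUSG00000024190) lies on chromosome 17 at 26642535 to 26645464 and Dusp3 (ENSMUSG00000003518) on chromosome 11 at 101832457 to 101848327. Dusp6 (ENSMUSG00000019960) lies on chromosome 10 at 98725865 to 98730122. Dusp7 (ENSMUSG00000053716) lies on chromosome 9 at 106270963 to 106278055. Dusp10 (ENSMUSG00000039384) lies on chromosome 1 at 185837181 to 185899515. Dusp16 (ENSMUSG00000030203) lies on chromosome 6 at 134665488 to 134742643. The values are whole-gene counts, so they cover all exons of a gene and do not separate its transcripts.

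Promoter sequence was read from RefSeq on a later build, GRCm38.p6, and all 6 genes had an entry. The 250 bases before the start of Dusp1 are shown because the gene's level differed most between the genotypes. Those of Dusp3, Dusp10 and Dusp16 are shown because these 3 genes followed the time of day in both genotypes. BMAL1 and CLOCK are known to bind the E-box CACGTG, and CREB, which fasting hormones activate in liver, binds the cyclic AMP response element TGACGTCA or its short form TGACG. Capitals mark matches to these 3 motifs on either strand.
Dusp1 (chr17:26508473-26508722, minus strand): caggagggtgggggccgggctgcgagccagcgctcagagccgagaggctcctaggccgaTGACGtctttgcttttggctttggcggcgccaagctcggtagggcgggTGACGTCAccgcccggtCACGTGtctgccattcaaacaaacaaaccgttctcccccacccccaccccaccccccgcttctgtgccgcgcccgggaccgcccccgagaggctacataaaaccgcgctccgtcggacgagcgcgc
Dusp3 (chr11:101984792-101985041, minus strand): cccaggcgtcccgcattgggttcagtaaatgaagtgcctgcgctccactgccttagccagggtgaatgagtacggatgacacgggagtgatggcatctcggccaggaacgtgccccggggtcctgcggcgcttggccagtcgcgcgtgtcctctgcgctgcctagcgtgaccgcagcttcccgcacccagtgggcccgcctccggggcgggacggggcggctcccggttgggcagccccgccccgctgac
Dusp10 (chr1:184034131-184034380, plus strand): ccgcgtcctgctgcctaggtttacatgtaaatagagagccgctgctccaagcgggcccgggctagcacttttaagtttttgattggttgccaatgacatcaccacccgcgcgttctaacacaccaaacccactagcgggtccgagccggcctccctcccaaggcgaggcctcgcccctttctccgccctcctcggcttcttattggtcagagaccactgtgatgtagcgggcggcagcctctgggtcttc
Dusp16 (chr6:134792629-134792878, minus strand): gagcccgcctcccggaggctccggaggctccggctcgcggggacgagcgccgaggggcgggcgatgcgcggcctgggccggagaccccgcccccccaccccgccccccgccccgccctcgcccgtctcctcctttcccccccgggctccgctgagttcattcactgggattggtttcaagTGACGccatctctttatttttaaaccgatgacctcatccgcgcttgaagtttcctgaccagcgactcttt

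The Dusp1 window held CACGTG beginning 126 bases before the start, TGACGTCA beginning 143 bases before it, and a further TGACG beginning 191 bases before it. The short form also matches inside TGACGTCA, on both strands. Dusp16 held 1 TGACG, beginning 70 bases before its start. No window of Dusp3, Dusp6, Dusp7 or Dusp10 held any of the 3 motifs, and none of the 6 held the AP-1 site TGANTCA or the TATA box TATAAA. Over 32851 RefSeq promoter windows of the same length, CACGTG was present in 6.02%, TGACGTCA in 1.55%, TGACG in 17.8%, TGANTCA in 6.75% and TATAAA in 12.4%. These matches are letters in a window and say nothing of binding in these livers.

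Dusp1 was the member that stood apart between the genotypes. Its mean level was 78.1 ± 34.3 CPM over the WT livers (SD, n = 25) and 25.9 ± 15.3 CPM over the KO livers (SD, n = 23). At ZT0 the WT mice had 41.8, 59.9, 73.7 and 102 CPM and the KO mice 17.6, 19.2, 27.7 and 28.6 CPM. At ZT4 the WT mice had 25.7, 33.95, 43.3 and 138 CPM and the KO mice 8.05, 8.73, 9.98 and 18.6 CPM. Every KO liver at these 2 times lay below every WT liver, and 1 WT mouse at ZT4 stood far above the other 3.

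At ZT8 the WT mice had 46.5, 51.1, 62.7 and 88.3 CPM of Dusp1 and the KO mice 13.0, 16.95, 16.98 and 39.05 CPM. At ZT12 the WT mice had 56.1, 58.2, 108 and 117 CPM and the KO mice 14.3, 22.3, 22.3 and 34.4 CPM. The groups again did not overlap, with 1 KO mouse at ZT8 well above its 3 fellows. At ZT16 the WT mice had 50.3, 58.8, 66.4, 107 and 134 CPM and the KO mice 22.6, 38.6 and 78.3 CPM. This was the time at which the groups overlapped, through 1 KO liver that exceeded 3 of the 5 WT livers. At ZT20 the WT mice had 74.8, 94.2, 124 and 138 CPM and the KO mice 28.02, 30.7, 34.6 and 43.6 CPM, again without overlap.

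**Figure D1:**
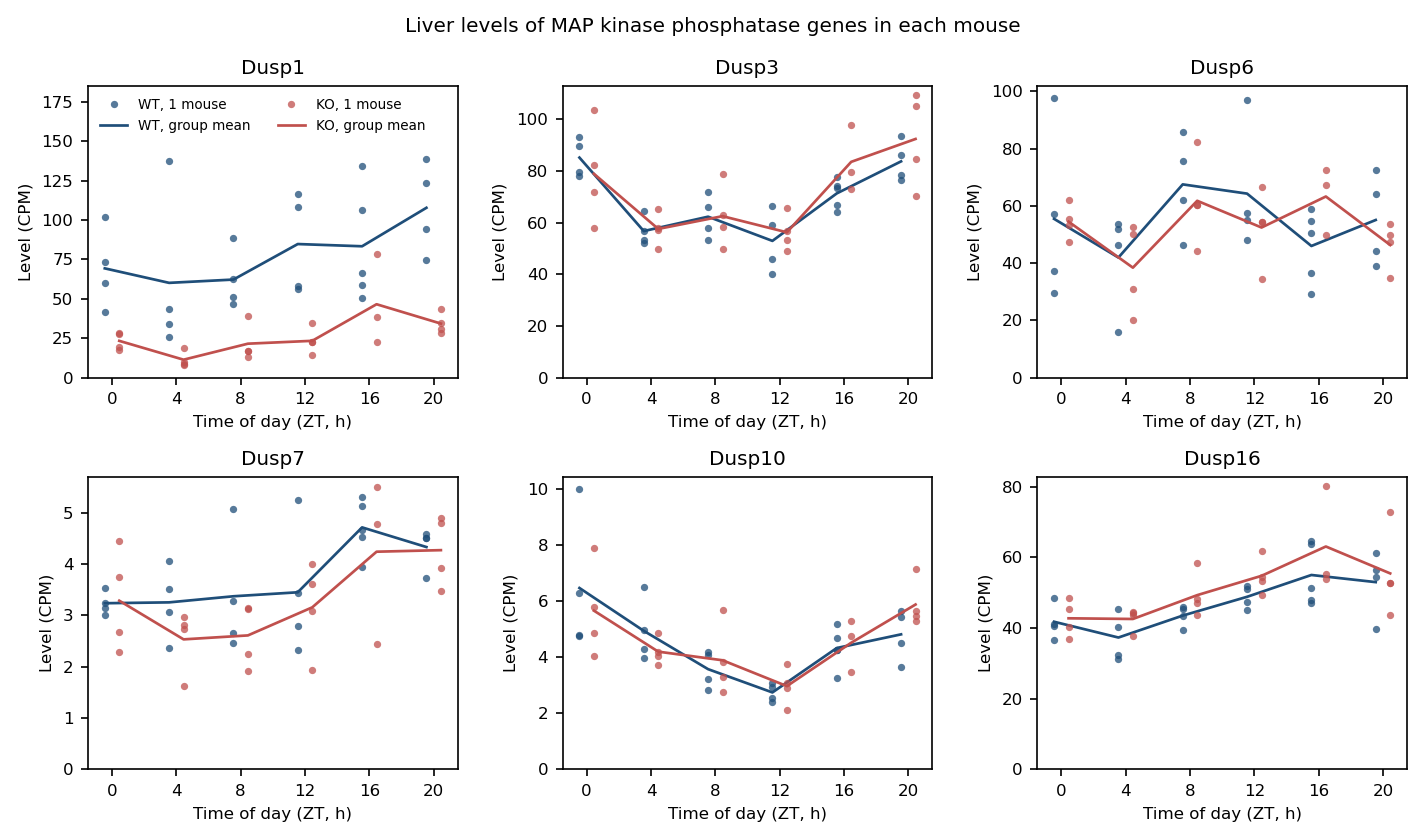
Level of each of the 6 phosphatase genes (CPM, vertical axis) against time of day (ZT, h). Each mouse is a point, and a line runs through the group means of WT and of KO. The KO points of Dusp1 lie below the WT points at 5 of 6 times, while those of the other 5 genes lie among the WT points at every time.

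Dusp1 in KO was therefore below WT without overlap at 5 of 6 times. For single times, the share of all tested genes with KO below WT without overlap was 3.98% for ZT4, where it was largest, 1.9% for ZT12, 1.77% for ZT0, 0.791% for ZT8, 0.594% for ZT16 and 0.476% for ZT20. For 5 or more times it was 0.0147%, which is 2 genes. Over all times the log2 difference of Dusp1 between KO and WT was -1.64 (SE 0.18), a KO level 32.01% of WT. It was widest at ZT4, -2.40, followed by -1.86 at ZT12, -1.65 at ZT20, -1.57 at ZT0, -1.53 at ZT8 and -0.84 at ZT16. At ZT4 the slope of counts on GC content was also lower in most KO libraries than in the WT libraries, as given below. Without the KO mouse with the highest level at ZT16 the difference there was -1.45, and without the WT mouse with the highest level at ZT4 the difference at ZT4 was -1.59. Leaving out any 1 of the 48 mice kept the overall difference between -1.75 and -1.51. These are levels in whole liver RNA, in which fewer cells of a type and less RNA per cell cannot be told apart.

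The other 5 genes overlapped between KO and WT at 6 of 6 times, and most genes overlapped at any single time. At ZT4, where separation was most frequent, KO lay below WT without overlap in 543 of 13646 genes and above in 520. Dusp6, the ERK phosphatase, had 54.7 ± 19.9 CPM in WT and 52.3 ± 13.9 CPM in KO (SD, n = 25 and 23), a log2 difference of -0.06 (SE 0.13). Its relative Dusp7 was far lower, at 3.77 ± 0.95 CPM in WT and 3.31 ± 1.07 CPM in KO, a log2 difference of -0.17 (SE 0.11). The KO mean of both was below the WT mean at 5 of 6 times.

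Dusp3 had 68.8 ± 14.4 CPM in WT and 71.4 ± 18.6 CPM in KO, a log2 difference of 0.06 (SE 0.07). Of the JNK and p38 phosphatases, Dusp10 had 4.47 ± 1.60 CPM in WT and 4.52 ± 1.41 CPM in KO, a log2 difference of 0.03 (SE 0.10). Dusp16 had 46.9 ± 8.74 CPM in WT and 50.8 ± 10.4 CPM in KO, a log2 difference of 0.14 (SE 0.06), with the KO mean above the WT mean at 6 of 6 times, as in 3.6% of all genes tested. With body weight as a covariate the Dusp16 difference was 0.04.

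**Figure D2:**
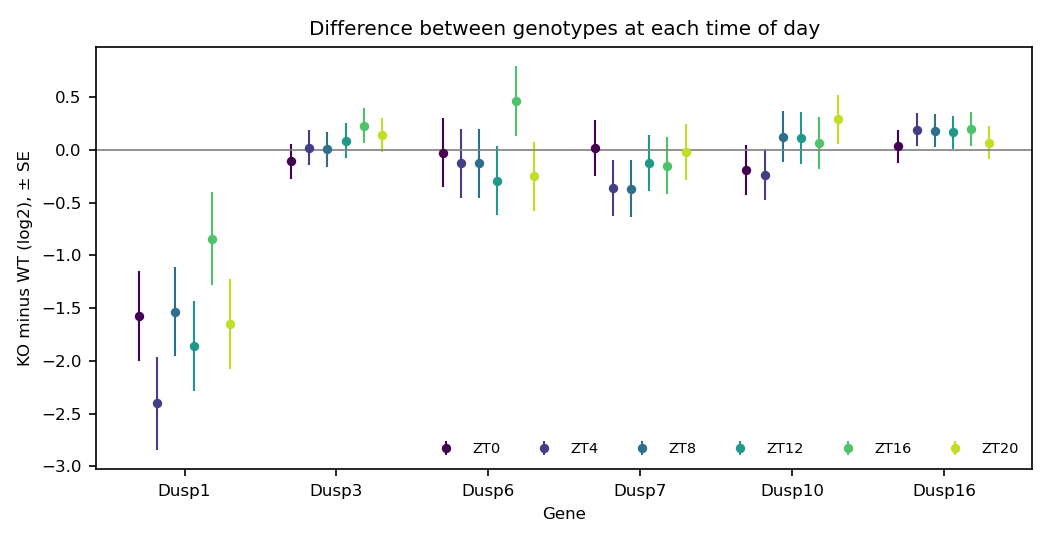
Difference between KO and WT (log2, vertical axis) at each time of day (ZT, h) for each of the 6 genes, with bars for 1 SE of the fit and a line at 0. Dusp1 runs from -2.40 at ZT4 to -0.84 at ZT16, and the other 5 genes from -0.37 (Dusp7 at ZT8) to 0.46 (Dusp6 at ZT16).

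Whether the genotype difference itself moved with time was tested with a 5 degree of freedom interaction over the 6 times. None of the 6 genes passed, with adjusted p from 0.953 to 0.989 in edgeR's quasi-likelihood test (Benjamini-Hochberg adjustment). Of all genes tested 1 passed (0.00733%), and 447 had an unadjusted p under 0.05. The smaller Dusp1 difference at ZT16 is thus not shown to differ from the difference at the other times.

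Levels of different genes were compared per kilobase of exon, since a longer transcript yields more reads. Exon lengths are from a later annotation. For Dusp1 that length, 3311 bases, exceeds its whole mm9 locus, so its level and share per kb may be too low. On the scale of CPM per kb, WT liver held Dusp1 at 23.6, Dusp6 at 17.5, Dusp3 at 14.7, Dusp16 at 6.01, Dusp10 at 1.47 and Dusp7 at 1.12. KO liver held Dusp6 at 16.7, Dusp3 at 15.3, Dusp1 at 7.81, Dusp16 at 6.51, Dusp10 at 1.48 and Dusp7 at 0.987. These are means over all 6 times, and in WT the gap between Dusp1 and Dusp6 was smaller than the SD of Dusp1 over mice, 10.4 CPM per kb. The Dusp1 share of the summed level of the 6 genes per kb was 36.7% in WT and 16.0% in KO, against 27.1% and 34.3% for Dusp6 and 22.8% and 31.3% for Dusp3. Shares add to a whole, so the shares of the other genes rise where that of Dusp1 is lower.

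Time of day was tested with a 24 h cosine in each genotype, a measure that does not use the genotype difference. In edgeR's quasi-likelihood test, Dusp3, Dusp10 and Dusp16 were rhythmic in WT and these 3 plus Dusp1 and Dusp7 in KO. The background is large, since 16.3% of all tested genes were called rhythmic in WT, 17% in KO and 9.59% in both. Dusp6 was called in neither, with adjusted p of 0.684 in WT and 0.600 in KO. The rhythm calls of Dusp1 and Dusp7 in KO and not in WT do not show a difference between the genotypes. The test of that difference gave an adjusted p of 0.9999 for each of the 6 genes, with unadjusted p from 0.218 to 0.780, and it called 1 of all genes tested (0.00733%) with 363 at an unadjusted p under 0.05.

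Dusp10 had the widest swing of the 3 genes rhythmic in both genotypes. At ZT0 the WT mice had 4.75, 4.80, 6.30 and 10.02 CPM, and at ZT12 they had 2.41, 2.54, 2.92 and 3.08 CPM. The KO mice had 4.06, 4.87, 5.80 and 7.91 CPM at ZT0, and 2.10, 2.90, 3.08 and 3.77 CPM at ZT12. In both genotypes each ZT0 liver was above each ZT12 liver. ZT0 and ZT12 held the highest and lowest WT means, a choice that favours separation. The share of all genes so separated between times of day was not counted, here or for the genes below. The fitted cosine peaked at ZT 23.4 (SE 0.69 h) in WT and ZT 22.2 (SE 0.84 h) in KO, with a peak 1.94-fold and 1.82-fold the trough (adjusted p = 0.000784 and 0.00520).

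The order of the WT means of Dusp10 was ZT0, ZT4, ZT20, ZT16, ZT8 and ZT12, from 6.47 ± 2.48 to 2.74 ± 0.31 CPM (SD, n = 4). Of neighbours in that order, ZT16 and ZT8 differed by more than the larger SD, as did ZT8 and ZT12. The KO means ran from 5.88 ± 0.85 CPM at ZT20 through ZT0, ZT16, ZT4 and ZT8 to 2.96 ± 0.69 CPM at ZT12 (SD, n = 4), and no neighbours differed by more than the larger SD.

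Dusp3 was high late in the dark phase of the housing schedule and around its end. At ZT20 the WT mice had 76.6, 78.6, 86.1 and 93.7 CPM and the KO mice 70.2, 84.8, 105 and 110 CPM. At ZT12 the WT mice had 40.2, 46.0, 59.3 and 66.3 CPM and the KO mice 48.9, 53.4, 57.0 and 65.8 CPM. In each genotype the ZT20 livers lay above the ZT12 livers without overlap, again at times of high and low means. The cosine peaked at ZT 21.3 (SE 0.68 h) in WT and ZT 19.8 (SE 0.86 h) in KO, with a peak 1.59-fold and 1.62-fold the trough (adjusted p = 0.00327 and 0.00165).

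The order of the WT means of Dusp3 was ZT0, ZT20, ZT16, ZT8, ZT4 and ZT12, from 85.2 ± 7.48 to 53.0 ± 12.0 CPM (SD, n = 4). The steps from ZT20 to ZT16 and from ZT16 to ZT8 exceeded the larger SD of the neighbours. In KO the order was ZT20, ZT16, ZT0, ZT8, ZT4 and ZT12, from 92.4 ± 18.3 to 56.3 ± 7.16 CPM (SD, n = 4), with no step above the larger SD.

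Dusp16, which shares the JNK and p38 preference of Dusp10, had an earlier fitted peak. At ZT16 the WT mice had 47.1, 47.9, 51.5, 63.9 and 64.6 CPM of Dusp16, and at ZT4 they had 31.2, 32.3, 40.3 and 45.4 CPM. The KO mice had 53.9, 55.2 and 80.2 CPM at ZT16, and 37.7, 43.7, 44.3 and 44.5 CPM at ZT4. The ZT16 livers were above the ZT4 livers without overlap in both genotypes, at the times of the highest and lowest means. The cosine peaked at ZT 16.2 (SE 0.78 h) in WT and ZT 15.2 (SE 0.83 h) in KO, with a peak 1.45-fold and 1.46-fold the trough (adjusted p = 0.00339 and 0.00576). With the 6 times as separate levels in place of the cosine, the adjusted p of Dusp16 was 0.0519 in WT and 0.0596 in KO and passed in neither, where 8.55% of all genes passed in WT and 9.73% in KO.

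In both genotypes the lowest mean levels of Dusp16 were at ZT4 and ZT0, and the highest at ZT16, 55.0 ± 8.62 CPM in WT (SD, n = 5) and 63.1 ± 14.8 CPM in KO (SD, n = 3). The remaining order, ZT20, ZT12 and ZT8 below ZT16, was also shared. Between neighbours, the steps from ZT12 to ZT8 in WT and from ZT8 to ZT0 in KO exceeded the larger SD.

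Dusp1 itself swung most in KO. Its KO means were 46.5 ± 28.7 CPM at ZT16 (SD, n = 3) and 11.3 ± 4.92 CPM at ZT4 (SD, n = 4). The 4 KO livers of ZT4, the time of the lowest mean, lay below all 7 of ZT16 and ZT20, the times of the highest. In KO the cosine peaked at ZT 17.2 (SE 0.80 h), with a peak 3.01-fold the trough, and accounted for 51.5% of the variance (adjusted p = 0.00594). In WT it peaked at ZT 17.4 (SE 1.6 h), with a peak 1.79-fold the trough, and accounted for 21.2% of the variance (adjusted p = 0.244). The WT mean was highest at ZT20, 108 ± 28.6 CPM, and lowest at ZT4, 60.1 ± 52.1 CPM (SD, n = 4), and no neighbouring means in WT differed by more than the larger SD. Without the high WT mouse at ZT4 the WT rhythm had an adjusted p of 0.0476, and without the high KO mouse at ZT16 the KO rhythm had one of 0.0478.

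Dusp7 peaked near the same time as Dusp1, at ZT 17.5 (SE 1.2 h) in WT and ZT 18.2 (SE 1.1 h) in KO. Its WT mice at ZT16 had 3.94, 4.53, 4.67, 5.14 and 5.31 CPM, and those at ZT0 had 3.02, 3.15, 3.24 and 3.54 CPM. The fitted peak was 1.47-fold the trough in WT (adjusted p = 0.106) and 1.73-fold in KO (adjusted p = 0.0152). The KO call was lost with the 6 times as separate levels (adjusted p = 0.134), and without 1 WT mouse of ZT8 the WT rhythm had an adjusted p of 0.0388. Dusp6 spread widely at a single time, for example 29.5, 37.2, 57.3 and 97.8 CPM in the WT mice of ZT0, and its cosine accounted for 5.32% of the variance in WT and 10.1% in KO.

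**Figure D3:**
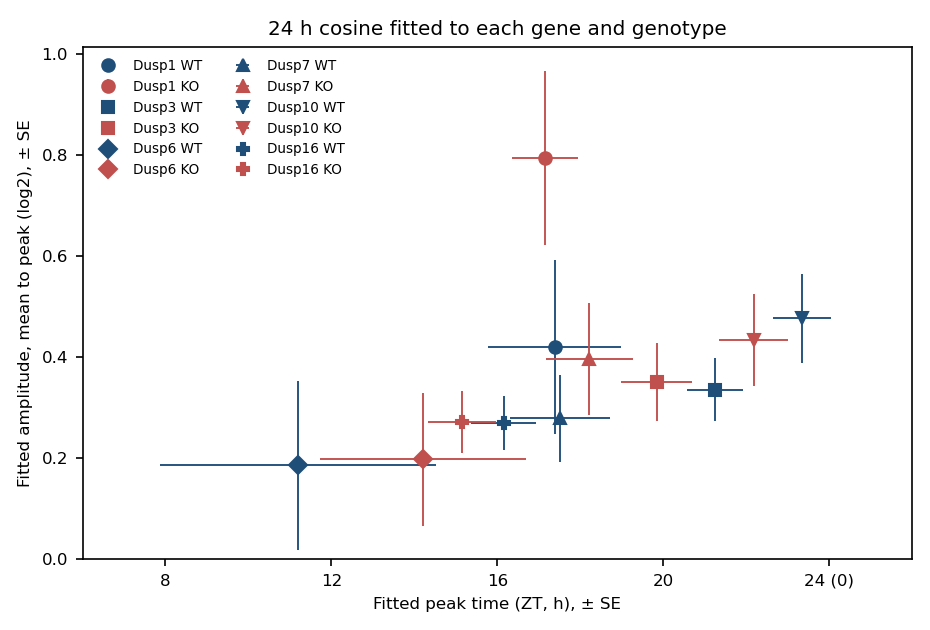
Amplitude of the 24 h cosine (log2, from the mean to the peak) and its peak time (ZT, h) for the 6 genes in WT and KO, with bars for 1 SE. The WT and KO peaks of Dusp1, Dusp3, Dusp7, Dusp10 and Dusp16 lie close together, and the widest amplitude is that of Dusp1 in KO at 0.79.

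The 6 genes differed in how much single mice of a group varied. The SD within groups on the log2 scale was 0.60 for Dusp1, 0.49 for Dusp6, 0.36 for Dusp7, 0.31 for Dusp10, 0.22 for Dusp3 and 0.21 for Dusp16, beside a median of 0.41 over all genes tested. Dusp1 and Dusp6 thus varied more between like-treated mice than the median gene, and Dusp3, Dusp7, Dusp10 and Dusp16 less.

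The members followed each other weakly from mouse to mouse. After group means were subtracted, the Pearson correlation of Dusp1 with the other 5 over 48 libraries ran from -0.06 to 0.16. The highest among the 15 pairs was 0.31 for Dusp6 with Dusp16 and the lowest -0.39 for Dusp10 with Dusp16. Over the 12 group means it was 0.79 for Dusp3 with Dusp10 and 0.69 for Dusp1 with Dusp7. Those means carry both the time of day and the genotype gap by which Dusp1 was chosen. All genes of a library share its depth, base composition and preparation, so these correlations are descriptions. The slope of counts on GC content differed between libraries, from -0.80 to 0.61 on the log2 scale per 10 points of GC, and its correlation with the members within groups was 0.29 for Dusp1, 0.32 for Dusp7, -0.29 for Dusp3 and -0.43 for Dusp16. The mean slope was 0.09 in WT and -0.10 in KO. At ZT4 the slope was -0.03, 0.02, 0.33 and 0.53 in WT livers and -0.80, -0.68, -0.33 and 0.50 in KO livers. With that slope in the fit, the Dusp1 difference over all times was -1.58. Across 9 alternatives, the slope among them, the Dusp1 difference at ZT4 ran from -2.49 to -2.13.

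Body weight and age varied within groups, and KO mice were heavier on average. Weight and age also differed between times of day. Mice were 58.5 to 69.75 weeks old at ZT0 and 28.75 to 62.5 weeks old at ZT20. KO mice weighed 25.5 to 34.5 g at ZT8 and 19.1 to 21.9 g at ZT20, and WT mice 21.6 to 23.1 g and 18.7 to 22 g. With weight or with age as a covariate the rhythm calls of the 6 genes stayed on their side of the threshold. In edgeR's quasi-likelihood test none of the 6 genes followed weight (adjusted p 0.649 to 0.997) or age (adjusted p 0.823 to 0.930) within groups. Weight was called for 0 of the 13646 genes, with 896 at an unadjusted p under 0.05 in edgeR and 2 calls in DESeq2, and age for 5 (0.0366%). Dusp16 had the lowest unadjusted p of the 6 for weight, 0.0208, at 0.04 per g on the log2 scale. With weight as a covariate in the fit, the overall Dusp1 difference between KO and WT was -1.74.

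Of the 5 other MAP kinase phosphatases, 4 were tested and none passed the KO against WT test. Dusp2, a nuclear enzyme of immune cells, had 0.577 ± 0.416 CPM in WT and 0.363 ± 0.183 CPM in KO (SD, n = 25 and 23), a log2 difference of -0.39 (SE 0.24, adjusted p = 0.393). Dusp4, a close relative of Dusp1, had 0.952 ± 0.379 and 0.780 ± 0.538 CPM, a difference of -0.32 (SE 0.20, adjusted p = 0.418). Dusp5, a nuclear ERK phosphatase, had 1.19 ± 0.563 and 1.10 ± 0.440 CPM, a difference of -0.11 (SE 0.15, adjusted p = 0.711).

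Dusp8, a JNK and p38 phosphatase, had 0.706 ± 0.843 CPM in WT and 0.501 ± 0.810 CPM in KO, a log2 difference of -0.62 (SE 0.39, adjusted p = 0.410), and was rhythmic in both genotypes (adjusted p = 0.00215 in WT and 0.000816 in KO). Its difference was -0.29 without replicate 2 of WT ZT4 and -0.94 without replicate 2 of KO ZT16. Dusp2 was called rhythmic in WT (adjusted p = 0.0296) and Dusp4 in KO (adjusted p = 0.0258), and the difference in rhythm passed for none of the 4. Dusp9 had 0 to 6 reads a library and was not tested. The median log2 difference of the 4 tested was -0.36, beside -0.0047 over all genes tested.

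Neighbouring gene groups were taken from lists drawn up with earlier results of these data known. Among atypical dual-specificity phosphatases, which lack the kinase-binding domain, 8 of 14 were tested and 1 was higher, none lower. That one was Dusp12, at 23 ± 4.67 CPM in WT and 28.3 ± 6.98 CPM in KO (SD, n = 25 and 23), a log2 difference of 0.28 (SE 0.07, adjusted p = 0.0430), beside 0.623% of all genes called higher. The call was lost in 28 of the 48 fits that left out 1 mouse. Of 8 tested among the other phosphatases that act on MAP kinases none passed, with Ppm1b, which acts on stress kinases, lowest in p at a difference of 0.08 (adjusted p = 0.341).

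Few of the kinases themselves passed the test between the genotypes. None of 13 MAP kinases tested was called, with a median log2 difference of -0.18, and the smallest p was that of Mapk7, the kinase ERK5, at -0.43 (SE 0.17, adjusted p = 0.185). Of 21 upstream kinases, 1 was lower and none higher, beside 0.777% of all genes called lower. It was Map3k6, an activator of JNK and p38, at 2.497 CPM in WT and 1.42 CPM in KO, a difference of -0.95 (SE 0.21, adjusted p = 0.0103), which passed in all 48 fits that left out a mouse and not with body weight as a covariate (adjusted p = 0.245). None of 10 downstream kinases was called, the smallest p being that of Rps6ka4, or MSK2, at -0.25 (adjusted p = 0.386). None of 15 genes of ERK feedback and response was called either, the smallest p being that of Ier3 at -0.51 (adjusted p = 0.131).

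AP-1 and immediate early genes are transcription factors and RNA regulators switched on within minutes of a signal, as Dusp1 is. Of 16 listed, 12 were tested, 5 were lower in KO, none higher and 7 did not pass, beside 0.777% of all genes called lower. The median log2 difference was -0.82 and 12 of 12 were below 0, as were 6968 of all 13646 genes tested. The list was chosen with these results known, so the count is no independent evidence of its direction. Fos, whose level went from 3.47 ± 3.03 CPM in WT to 0.848 ± 0.744 CPM in KO (SD, n = 25 and 23), fell by 1.98 in log2 terms (SE 0.26, adjusted p = 4.8e-06).

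Jun, the partner of Fos in AP-1, fell by 1.19 (SE 0.23, adjusted p = 0.00290), from 30.8 ± 22.6 to 13.8 ± 10.2 CPM. Junb fell by 1.15 (SE 0.19, adjusted p = 0.000423), from 31.9 ± 18.8 to 14.3 ± 6.83 CPM. Zfp36, which destabilises inflammatory mRNAs, fell by 1.04 (SE 0.21, adjusted p = 0.00546), from 110 ± 54.8 to 52.3 ± 28.8 CPM. The fifth called gene, Btg2, a growth arrest gene named here after its value was seen, was lower by a log2 difference of -0.82 (adjusted p = 0.0174). At ZT16, where the Dusp1 difference was smallest, the log2 difference was -0.06 for Fos (SE 0.61), -0.42 for Jun (SE 0.56), -0.04 for Junb (SE 0.46), -0.65 for Zfp36 (SE 0.53) and 0.75 for Btg2 (SE 0.46). None of the 5 passed the interaction of genotype and time (adjusted p = 0.953 for each). In a fit with body weight 3 of the 12 were called lower, and without ZT16 8 were.

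Glucocorticoids induce Dusp1, so genes known to respond to them were listed too. Of 15 listed, 14 were tested, 1 was lower and none higher, beside 0.777% of all genes called lower. The median log2 difference was -0.40 and 13 of 14 were below 0, as were 6968 of all 13646 genes tested. This list too was chosen with earlier results known, so the count is no independent evidence of its direction. The called gene was Fkbp5, a cochaperone of the glucocorticoid receptor, at 154 CPM in WT and 88.9 CPM in KO, a difference of -0.65 (SE 0.18, adjusted p = 0.0488). It lost the call in 34 of the 48 fits that left out a mouse, and with body weight as a covariate the difference was -0.35 (adjusted p = 0.418). Without 1 KO mouse of ZT16, replicate 2, 5 genes of the list were called lower.

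**Figure D4:**
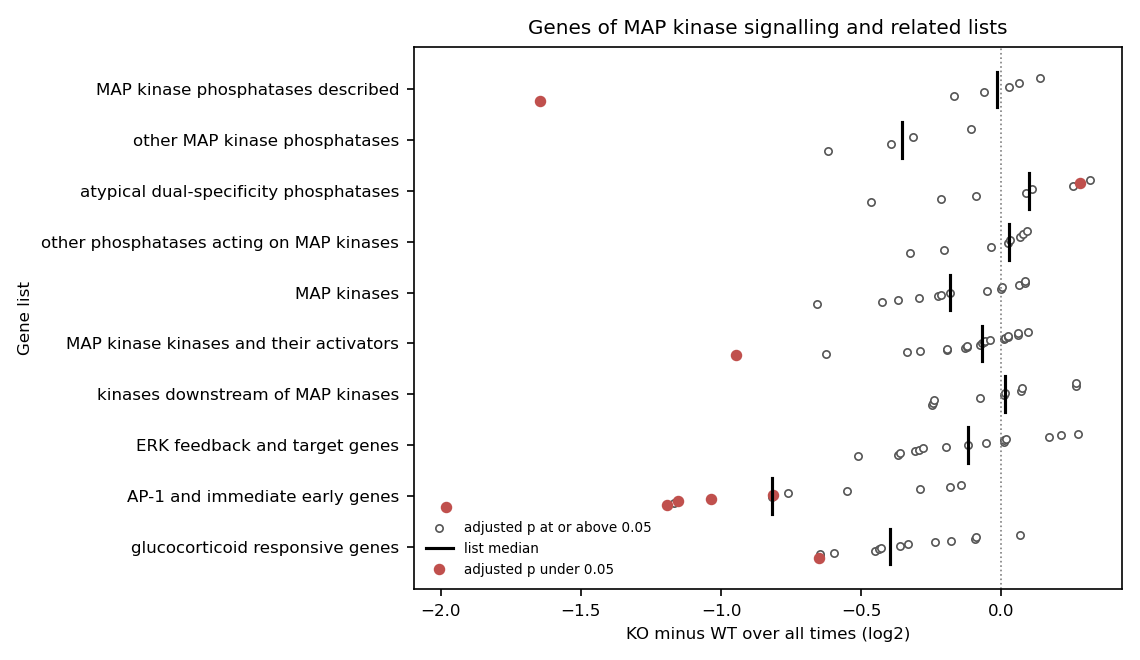
Difference between KO and WT over all times (log2, horizontal axis) for each tested gene of the pathway lists, one row a list, with calls marked and the median of each list. The AP-1 and immediate early genes have the lowest median, -0.82, beside -0.18 for the MAP kinases, where Mapk13 lies at -0.66, and -0.07 for the upstream kinases, where Map3k6 lies at -0.95.

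Genes whose level followed that of Dusp1 most closely were ranked among 12028 genes. Over the 48 libraries with group means subtracted, 4 of the 5 highest were Jun (r = 0.71), Gadd45g (0.71), Plk3 (0.69) and Zfp259 (0.67), beside a median of -0.01 over all ranked genes. Over the 12 group means they were Sparcl1 (r = 0.94), Prrg3 (0.93), Jun (0.93), Tmtc1 (0.92) and Ptpn13 (0.91), and these means include the genotype gap that the choice of Dusp1 used. Jun was in both lists. With Spearman's correlation 3 of the first 5 and 2 of the second 5 were shared. All genes of a library share its preparation, depth and base composition, and GC slope differed between libraries.

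Markers of other liver cell types were read beside these results. Of 9 neutrophil markers 9 were tested and none was called between the genotypes. The log2 difference was below 0 for 9, as for 6968 of all 13646 genes tested. Its median was -1.55, with SE from 0.51 (S100a9) to 1.64 (Ltf). Mean CPM was nonetheless higher in KO for Elane (0.672 in WT, 0.826 in KO) and Mpo (1.149 and 1.575), and lower for the others. The summed level of the 9 was 2.05 to 484 CPM in WT (median 8.28) and 2.02 to 606 CPM in KO (median 7.41). In each genotype the highest library thus lay far above the median. Of 9 tested macrophage markers, 7 of sinusoidal endothelium, 7 of stellate cells and 5 of cholangiocytes none was called. The summed macrophage level was 138 to 1253 CPM in WT and 128 to 690 CPM in KO. Of 8 lymphocyte markers 1, Ighm, was lower in KO, beside 0.777% of all genes. Ighm had 71.2 ± 240 CPM in WT and 8.995 ± 3.87 CPM in KO (SD, n = 25 and 23), and the summed lymphocyte level had a median of 15.4 CPM and a highest value of 1225 CPM in WT, beside a median of 16.6 and a highest of 30.2 CPM in KO. The part of these cells in the Dusp1 difference was not tested.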

How the data were processed

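Liver RNA of 48 mice was sequenced from polyA-selected, stranded TruSeq mRNA libraries made with 13 PCR cycles over 3 days, per the labels' protocols; the day of each library is not given, so no comparison within a day was possible. The authors deposited whole-number read counts per gene. The submitters' processing notes name CASAVA, STAR 2.4.1d and the mm9 build; the counting step is not given in the sources used here. Totals of 12840000 to 13010000 reads were alike across libraries, and no step that sets depth is given in the sources used here. The 6 genes and all lists were chosen with earlier results of these data known. Replicates are separate mice, and no 2 libraries of a group agreed within sampling noise.

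Alb was left out of totals and tests. Counts were filtered with filterByExpr over the 12 groups, scaled by TMM and fitted with edgeR 4.0.16 (R 4.3.3), with 1 mean per group for genotype, each time and the interaction, and a 24 h cosine per genotype for rhythm. All tests were two-sided quasi-likelihood tests over 13646 genes with Benjamini-Hochberg adjustment at 0.05. CPM are counts over TMM-scaled totals, and log2 CPM a prior count of 2. Amplitude and peak come from least squares on log2 CPM. Lengths are the union of exons in a later annotation (GRCm38), matched by gene ID. The pathway genes named are at most 4 per list with the smallest p among those called, or the 1 with the smallest p where none was called. Genes like Dusp1 are the 5 with the highest Pearson correlation, among genes with mean log2 CPM of at least 0; 1 of them is not reported here. Alternatives were DESeq2 1.42.0, its size factors, no filter, weight, age or GC slope as covariates, a replicate block, 6 times as a factor, without ZT16, Alb kept, and each mouse left out. On simulated counts for 13646 genes, the test between KO and WT recovered 96% of 50 genes set at a log2 difference of -1.5, 72% at -0.75, 82% at 0.75 and 100% at 1.5. Rhythms of amplitude 0.5 were recovered for 49% of 100 genes in WT and 41% in KO, and of amplitude 0.25 for 4% and 6%. Among genes set without a change, 10 were called between KO and WT, 1 for rhythm in WT and 3 in KO. The simulated counts held no GC slope, so recovery in these livers may differ.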

Additional observations from a re-analysis of the deposited data

Results flagged for a closer look

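Of 66 gene and group combinations of 4 or 5 mice, 4 held a mouse far from the others, and chance alone marks about 1 in 20. In WT at ZT4 replicate 2 had 138 CPM of Dusp1, the next mouse 43.3 CPM. In KO at ZT8 replicate 2 had 39.05 CPM of Dusp1, the next 16.98 CPM; this was the heaviest mouse of the study at 34.5 g. In WT at ZT20 replicate 1 had 3.73 CPM of Dusp7 and the next mouse above it 4.51 CPM. In KO at ZT4 replicate 1 had 37.7 CPM of Dusp16 and the next above it 43.7 CPM. In each case the gap was over 0.829 of the range of the 4 mice.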

How the results depend on the processing

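Over 61 alternatives and 6728 recomputed values no called value changed sign, and 4390 of the 4401 for the 6 genes kept their side of the threshold or moved less than the spread between mice. Counts over all genes moved more. Between KO and WT the 191 calls became 122 without the filter, 38 with body weight as a covariate, 356 in DESeq2 and 99 to 484 with 1 mouse left out, 99 without KO ZT16 replicate 3 and 484 without KO ZT4 replicate 1 (125 without KO ZT4 replicate 3, 328 and 363 without KO ZT16 replicates 1 and 2, 381 without WT ZT16 replicate 2). The 1 interaction call became 4 with the GC slope, 7 in DESeq2 and 0 to 3 with a mouse left out. The 2228 rhythmic genes in WT became 1167 with 6 times as a factor, 4053 with the GC slope and 1876 to 2987 with a mouse left out; the 2322 in KO became 1328 with the factor and 1628 to 3691, the latter without KO ZT16 replicate 3. The 1 gene with a rhythm difference became 3 with the GC slope, 5 in DESeq2 and 1 to 2. Weight calls (0) became 3 without ZT16, 2 in DESeq2 and 0 to 2. The 5 age calls became 3 with DESeq2's size factors, 0 without ZT16, 34 in DESeq2 and 0 to 109, again highest without KO ZT16 replicate 3. The 10 calls summed over single times became 3 with weight, 23 with the GC slope, 0 with only the samples of that time, 224 in DESeq2 and 1 to 3360, with 331 without KO ZT16 replicate 3 and 3360 without KO ZT4 replicate 1. The cause was not tested. The fits with the GC slope and with Alb kept, and the counts per gene list under each alternative, were chosen after seeing the data.

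The labels number mice within groups, and 22 of the 23 same-numbered pairs had the same age. The labels do not say that the numbers pair the mice. Of the 23 pairs, 14 correlated over 0.1 (median 0.16, range -0.49 to 0.60) and 10 correlated best with their own number. Counts by chance were not worked out, so these values do not decide whether the mice were paired. The main fits used no pairing. With a replicate block the calls were 127 between KO and WT, 0 for the interaction and 2 over single times. The overall Dusp1 difference with the block was -1.61. Dusp12 was not called with the block (adjusted p = 0.178), without the filter, with DESeq2's size factors, or with weight or the GC slope. Zfp36 with weight had an adjusted p of 0.0763. Depth limits the genes under 1 CPM most, where 1 CPM is about 13 reads.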
